A study of Mus musculus with 6 samples.

Results

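The BCL2 family decides whether a cell keeps or loses the integrity of its mitochondrial outer membrane. Guardians of the family (BCL2, BCL-XL, MCL1 and A1) hold the effectors BAX and BAK in check, and BH3-only proteins such as BIM, BID and NOXA bind guardians or effectors and tip the balance towards death. In macrophages and microglia, stimulation of Toll-like receptor 4 engages NF-kB, a transcription factor known to raise several survival genes, A1 among them.

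The 10 genes described here were taken by gene symbol from the deposited table of read counts, which lists 54532 genes. They are the guardians Bcl2, Bcl2l1 (BCL-XL), Mcl1, Bcl2a1b and Bcl2a1d (both A1), the effectors Bax and Bak1, and the BH3-only genes Bid, Bcl2l11 (BIM) and Pmaip1 (NOXA). All 10 were found once each, and all 10 were among the 12296 genes that passed the filter on low counts. RNA was sequenced from N9 cells, an immortalized mouse microglial line, in 6 libraries. The 3 control libraries came from untreated cells, and the 3 LPS libraries from cells given lipopolysaccharide, a Toll-like receptor 4 agonist from gram-negative bacteria, at 1 µg/ml for 6 h. No source used here says whether the 3 libraries of a group came from separate cultures, so the p-values measure the spread between these libraries, which may be technical. N9 is 1 immortalized line and not primary microglia.

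Library totals lay between 16363767 and 17956772 counts, and the 10 genes together took from 0.132% to 0.166% of each library. Microglial and macrophage markers were present, with Csf1r, the CSF1 receptor, at 432 CPM in control cells, but Aif1 (IBA1) and P2ry12 (a purine receptor of resting microglia) were at 0.379 and 0.264 CPM. CPM is the count scaled to the library's total after TMM normalization. Of 20 hepatocyte markers in the table, the summed level ran from 5.37 to 34.9 CPM in control libraries and from 5.18 to 6.70 CPM with LPS. Counts of albumin (Alb) were 2 in control replicate 1, 155 in replicate 2 and 292 in replicate 3, against at most 2 in an LPS library. Control replicates 2 and 3 thus stood apart, and the numbers of the 10 genes called higher, lower and DEG are also given without them. The part of these liver transcripts in the results for the BCL2 family was not tested beyond that.

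The closest relatives among the 10 were Bcl2a1b and Bcl2a1d, copies of A1 on chromosome 9, and their sequences set how far reads can tell them apart. In the GENCODE M21 transcripts on GRCm38, both coding sequences are 519 bases long and differ at 6 of them. Counted from the first base of the start codon, with the base of Bcl2a1b first, the differences are G4T, T48C, A94C, G312A, C381G and T490A. The longest run between 2 neighbouring differences is 217 identical bases. The first 100 coding bases are shown because they hold 3 of the 6 differences, which are in capitals.
Bcl2a1b: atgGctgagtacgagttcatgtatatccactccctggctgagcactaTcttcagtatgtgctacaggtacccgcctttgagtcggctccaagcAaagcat
Bcl2a1d: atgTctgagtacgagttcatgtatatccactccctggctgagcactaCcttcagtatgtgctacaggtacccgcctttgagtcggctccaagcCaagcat

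Of the distinct 100-base words in the Bcl2a1d transcript, 54.7% also occur in another gene's transcripts, and of those in the Bcl2a1b transcript 56.8% do. Counting Bcl2a1 genes alone, the shares are 54.7% and 31.1%. The Bcl2a1b locus also overlaps Gm29094 on the same strand by 8449 bases, a gene with 0 counts in every library. Mcl1, Bcl2l1, Bcl2l11 and Pmaip1 had 0 such words in any other gene's transcripts. The counting of reads that match several genes is not given in the sources used here, so the values of Bcl2a1b and Bcl2a1d are uncertain as separate values, and their sum is given beside them. Gene-level counts also do not separate the long and short splice forms of Bcl2l1 and Mcl1, which are known for opposite actions.

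In LPS-stimulated versus control N9 microglia, 5 of the 10 genes were up-regulated, 3 were down-regulated and 2 did not pass the test. The up-regulated genes were Bcl2a1d, Bcl2a1b, Bcl2l11, Bid and Mcl1, and the down-regulated genes were Pmaip1, Bcl2 and Bax. Both directions were found among the guardians and among the BH3-only genes. A gene was called at an adjusted p under 0.05 by edgeR's quasi-likelihood test over all 12296 genes, of which 18.7% were called higher with LPS and 15.7% lower. The groups did not overlap for 9 of the 10 genes, against 45.3% of all tested genes. Only Bcl2a1d also passed the absolute log2 fold change of 1.5 that the study set for a differentially expressed gene (DEG), which 2.65% of tested genes passed. The median log2 fold change of the 10 genes was 0.34, beside 0.00 over all genes tested. Without control replicates 2 and 3, a fit added after the data were seen in which the control group was 1 library assumed to vary like the LPS libraries, 4 genes were called higher, 2 lower and 1 a DEG. In that fit 13% of all tested genes were called higher, 8.89% lower and 2.58% DEG, so that fewer genes were called in general. Bcl2a1b and Bcl2 were the genes no longer called there, with a log2 fold change of 0.79 for Bcl2a1b and of -0.49 for Bcl2 (edgeR adjusted p = 0.096 and 0.075), the latter no smaller in size than with all libraries. In such bulk RNA, fewer cells that express a gene and less RNA of it per cell cannot be told apart.

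**Figure D1:**
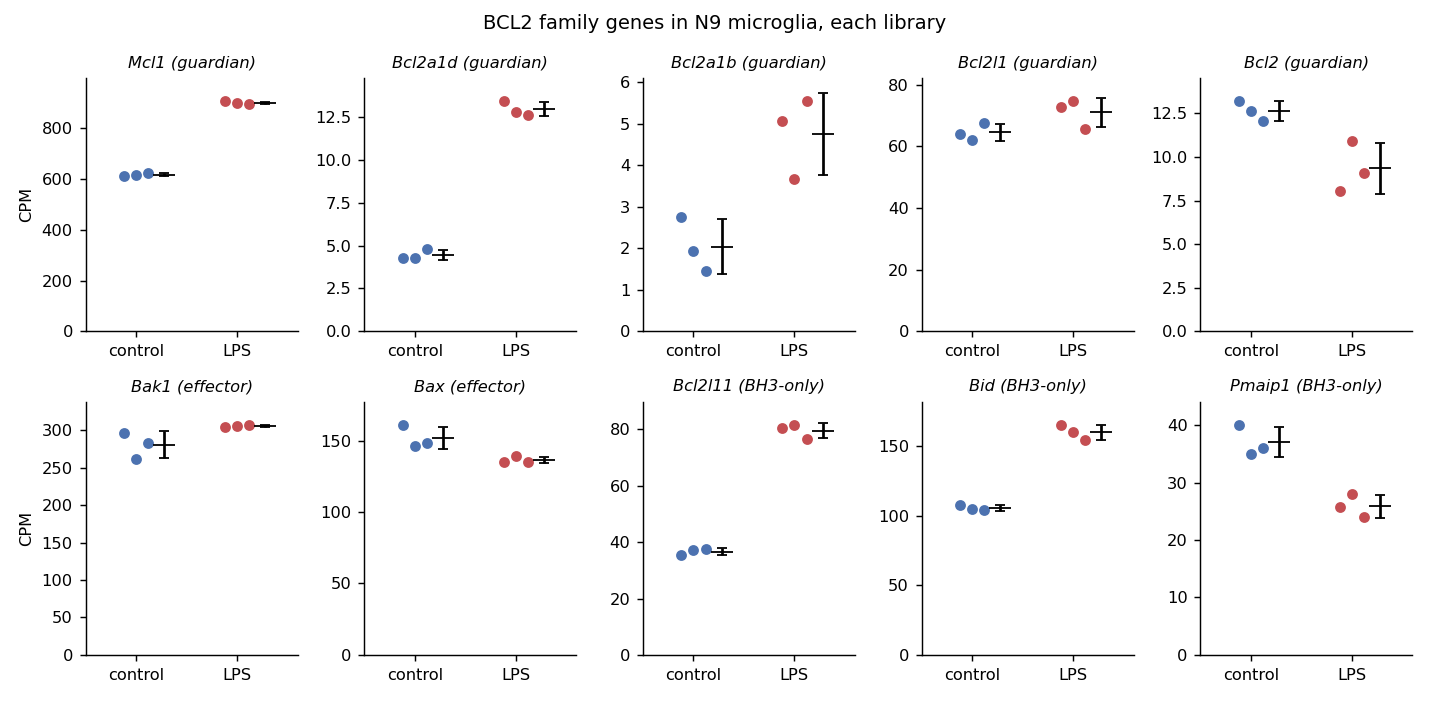
CPM of each of the 10 genes in the 3 control (blue) and 3 LPS (red) libraries, with the mean and SD as black marks and every axis starting at 0. The groups are separate in 9 of the 10 panels, and overlap for Bcl2l1.

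Among the guardians, Mcl1, a short-lived protein that restrains BAK and binds BIM and NOXA, was by far the most abundant. Mcl1 (ENSMUSG00000038612, chromosome 3, from 95658788 to 95663176 on mm10) stood at 612, 616 and 624 CPM in the control libraries and at 907, 900 and 897 CPM in the LPS libraries. All LPS libraries lay well above all control libraries, with little spread within either group. The increase was 1.46-fold, a log2 fold change of 0.55 with a standard error (SE) of 0.03 and an edgeR adjusted p of 3.9e-09. Leaving out any single library gave log2 fold changes from 0.53 to 0.55.

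Bcl2a1d (ENSMUSG00000099974, chromosome 9, from 88723285 to 88731914) encodes A1, a guardian known as an NF-kB target in leukocytes. Control libraries gave 73, 76 and 89 reads for it, and LPS libraries 212, 210 and 208. In CPM this was 4.45 ± 0.291 in control cells and 13.0 ± 0.411 in LPS-stimulated cells (mean ± SD of 3 libraries), with no overlap. The change of 2.91-fold was the largest of the 10 genes (log2 fold change 1.54, SE 0.13, edgeR adjusted p = 1.8e-07). It sat next to the DEG limit, since the value was 1.498 without control replicate 1 and Bcl2a1d was then no DEG.

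Bcl2a1b (ENSMUSG00000089929, chromosome 9, from 89199209 to 89207827) had 47, 34 and 27 counts in control cells and 80, 60 and 91 with LPS. The lowest LPS library lay above the highest control library, but the spread within groups was wide, with an SD of 32.0% of the mean in control cells. The log2 fold change was 1.22 (SE 0.26, edgeR adjusted p = 0.0017). It ran from 1.02 to 1.48 with each library left out, and was 0.79 (edgeR adjusted p = 0.096) without both control replicates 2 and 3.

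The share of Bcl2a1b in the counts of both A1 genes was 39.2%, 30.9% and 23.3% in control replicates 1, 2 and 3, with 95% exact binomial intervals of 30.4% to 48.5%, 22.4% to 40.4% and 15.9% to 32.0%. With LPS it was 27.4%, 22.2% and 30.4%, with intervals of 22.4% to 32.9%, 17.4% to 27.7% and 25.3% to 36.0%. The shares of both groups overlapped, and these intervals cover counting error only. The other copies were nearly silent in the table, with 1 count of Bcl2a1a in LPS replicate 1, 0 elsewhere, and 0 counts of Bcl2a1c in every library. Summed over the 4 copies, the counts were 120, 110 and 116 in control cells and 293, 270 and 299 with LPS. The sum gave a log2 fold change of 1.45 (SE 0.11, edgeR adjusted p = 9.8e-08), which is below the DEG limit of 1.5, so on the sum the only DEG among the 10 genes was lost. Its SD was 6.82% of the mean in control cells and 6.34% with LPS. For Bcl2a1d alone the SD was 6.54% and 3.17% of the mean, so relative to the mean the sum spread less than Bcl2a1b but not less than Bcl2a1d.

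**Figure D2:**
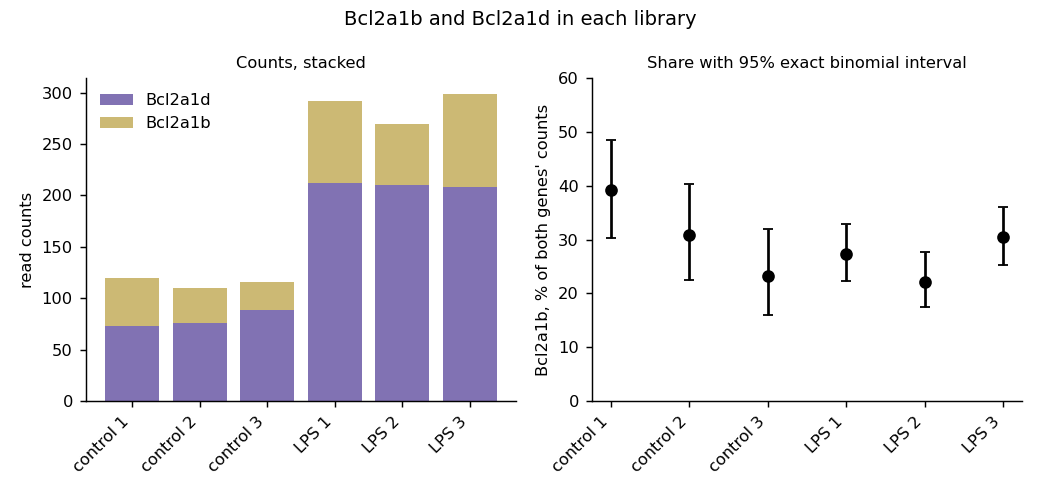
Left, read counts of Bcl2a1d and Bcl2a1b stacked for each library, from 110 to 120 in control cells and from 270 to 299 with LPS. Right, the share of Bcl2a1b in these counts with its 95% exact binomial interval, from 22.2% to 39.2%, with shares that overlap between the groups.

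Upstream of their start sites the copies of A1 are also close. Over the 250 bases at which their promoter windows align (RefSeq, GRCm38.p6), the windows of Bcl2a1b and Bcl2a1d differ at 3 bases, an identity of 98.8% that leaves out a gap. Bcl2a1b has 6 more bases there than Bcl2a1d. Both hold the letters GAGGAAGT, the core bound by the myeloid factor PU.1, and a match to TGANTCA, a loosened form of the AP-1 motif. The match is TGAATCA in both, whereas the AP-1 consensus has C or G at its centre. The stretches that lie before the gene in both annotations are shown with GAGGAAGT in capitals, for Bcl2a1b at chr9:89199023-89199208 on the plus strand and for Bcl2a1d at chr9:88731915-88732100 on the minus strand.
Bcl2a1b: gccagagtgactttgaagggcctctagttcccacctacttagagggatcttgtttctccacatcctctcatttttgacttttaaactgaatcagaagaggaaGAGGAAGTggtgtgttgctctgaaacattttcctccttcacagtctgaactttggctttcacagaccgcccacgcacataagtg
Bcl2a1d: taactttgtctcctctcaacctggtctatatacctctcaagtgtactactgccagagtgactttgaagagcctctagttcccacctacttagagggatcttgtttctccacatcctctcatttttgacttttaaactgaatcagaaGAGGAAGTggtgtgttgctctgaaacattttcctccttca

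Promoter windows of 300 bases, from 250 before to 50 after the start site, were used for 9 of the 10 genes, with 12 windows in all, and searched on both strands. GAGGAAGT was in the windows of 3 genes (Bcl2a1b, Bcl2a1d and Bak1) and in 3.2% of 32851 windows of all genes. The members are counted by gene, if any of their windows matched, whereas the shares of all are per window. TGANTCA was in the windows of Bcl2a1b and Bcl2a1d and in 7.81% of all windows. The windows of Bcl2a1b and Bcl2a1d are near copies, so their matches are not independent of each other. The motifs do not overlap each other in these windows, and from the first base of TGANTCA to the first base of GAGGAAGT there are 16 bases in Bcl2a1b and 10 in Bcl2a1d. The cAMP response element TGACGTCA was in 0 of the 9 genes' windows and in 1.79% of all. The kappaB motif and the paired interferon regulatory factor motif, each searched as 1 pattern with N at its centre, were in 0 of the 9 genes' windows and in 1.47% and 3.44% of all. A match describes these letters alone.

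Bcl2l1 (ENSMUSG00000007659, chromosome 2, from 152780668 to 152831728), whose main product BCL-XL guards the resting cell, stood at 63.9, 62.1 and 67.5 CPM in control cells and at 72.8, 74.5 and 65.6 CPM with LPS. LPS replicate 3 lay below control replicate 3, so the groups overlapped. The log2 fold change was 0.14, with a 95% interval from 0.01 to 0.26 and an edgeR adjusted p of 0.09, and the gene was not called. Without LPS replicate 3 it was called, at 0.19 (edgeR adjusted p = 0.029).

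Bcl2 (ENSMUSG00000057329, chromosome 1, from 106538178 to 106714274), the founding member of the family, was at 13.2, 12.6 and 12.1 CPM in control cells and at 8.05, 10.9 and 9.07 CPM with LPS. Every LPS library was below every control library. The level fell by 0.43 on the log2 scale (SE 0.13, edgeR adjusted p = 0.015). LPS replicate 1 was the lowest, and without it the change was -0.34 (edgeR adjusted p = 0.064), no longer called.

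The effectors BAX and BAK form the pores of the outer membrane, and their genes showed the smallest changes along with Bcl2l1. Bax (ENSMUSG00000003873, chromosome 7, from 45461697 to 45466898) stood at 161, 146 and 148 CPM in control cells and at 135, 139 and 135 CPM with LPS. Every LPS library was below every control library. The log2 fold change was -0.15 (SE 0.05, edgeR adjusted p = 0.022). The call was lost without control replicate 1 (-0.12, edgeR adjusted p = 0.053), LPS replicate 1 (-0.15, edgeR adjusted p = 0.061) or LPS replicate 3 (-0.15, edgeR adjusted p = 0.068).

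Bak1 (ENSMUSG00000057789, chromosome 17, from 27019810 to 27029009) stood at 297, 261 and 283 CPM in control cells and at 305, 305 and 307 CPM with LPS. The LPS libraries were above all control libraries, of which control replicate 2 was the lowest. The log2 fold change of 0.13 had a 95% interval from 0.02 to 0.23 and an edgeR adjusted p of 0.058, so Bak1 was not called. It was called under 4 alternatives, among them the fit without control replicate 1 (0.16, edgeR adjusted p = 0.016). Without control replicate 2 the log2 fold change was 0.07 (edgeR adjusted p = 0.295), and without both control replicates 2 and 3 it was 0.04 (edgeR adjusted p = 0.652). The Bak1 locus lies within that of Ggnbp1 on the other strand, which had at most 37 counts in a library, and the use of strand in counting is not given in the sources used here.

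BIM, the product of Bcl2l11, binds all guardians and is a main trigger of death in leukocytes. Bcl2l11 (ENSMUSG00000027381, chromosome 2, from 128126038 to 128162547) stood at 35.3, 37.2 and 37.4 CPM in control cells and at 80.4, 81.5 and 76.5 CPM with LPS. The groups were far apart. The increase was 2.17-fold (log2 fold change 1.12, SE 0.06, edgeR adjusted p = 5.9e-10), and from 1.08 to 1.14 on the log2 scale with each library left out.

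Bid (ENSMUSG00000004446, chromosome 6, from 120891930 to 120916853), which caspase-8 cleaves to carry death receptor signals to mitochondria, stood at 108, 105 and 104 CPM in control cells and at 165, 160 and 154 CPM with LPS. All LPS libraries were higher. The increase was 1.51-fold (log2 fold change 0.60, SE 0.05, edgeR adjusted p = 7.9e-08). The locus of Bid overlaps that of Bcl2l13 on the other strand by 913 bases. Bcl2l13, a mitochondrial relative, had a log2 fold change of 0.08 (SE 0.05, edgeR adjusted p = 0.26) and was not called.

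Pmaip1 (ENSMUSG00000024521, chromosome 18, from 66458604 to 66465550) encodes NOXA, a p53 target that binds MCL1 and A1. Its counts were 685, 618 and 669 in control cells and 405, 458 and 394 with LPS, or 37.0 ± 2.63 and 25.9 ± 1.98 CPM (mean ± SD of 3 libraries). All LPS libraries were lower than all control libraries. The level fell by 0.52 on the log2 scale (SE 0.08, edgeR adjusted p = 1.6e-04), to 0.699 of the control level.

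**Figure D3:**
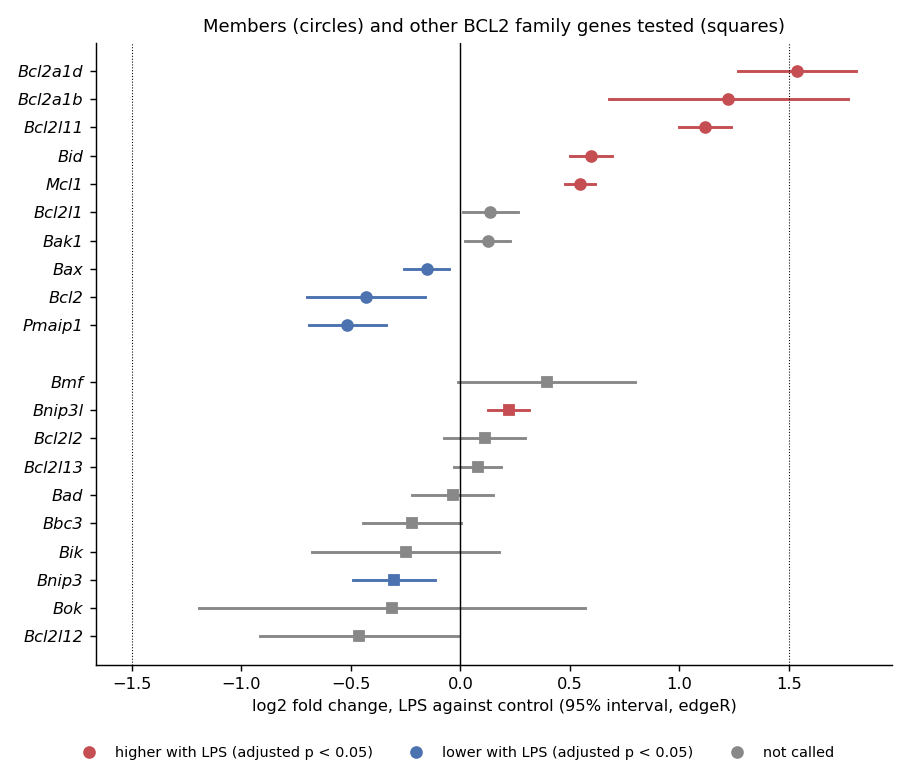
Log2 fold changes of the 10 genes (circles) and of the 10 other BCL2 family genes tested (squares), LPS against control, with 95% intervals from edgeR and dotted lines at an absolute value of 1.5. Bcl2a1d at 1.54 and Pmaip1 at -0.52 are the ends of the range of the 10 genes, and the other family genes lie between -0.46 and 0.39.

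Per kilobase of gene length, the order of levels in control cells ran from Mcl1 (181 ± 1.81 CPM per kb, mean ± SD of 3 libraries) through Bak1 (116 ± 7.50), Bax (96.4 ± 4.97) and Bid (29.7 ± 0.593) to Bcl2l1 (14.1 ± 0.598) and Pmaip1 (14.0 ± 0.993). Bcl2a1d (5.16 ± 0.338), Bcl2l11 (4.56 ± 0.149), Bcl2a1b (2.50 ± 0.799) and Bcl2 (1.38 ± 0.0624 CPM per kb) followed. Only the ranges of Bcl2l1 and Pmaip1 overlapped between neighbours. With LPS, Bcl2a1d (15.0 ± 0.476) and Bcl2l11 (9.90 ± 0.328 CPM per kb) both had means above that of Pmaip1 (9.77 ± 0.747). In that order Bcl2a1d overlapped with Bcl2l1 above it (15.5 ± 1.03), and Bcl2l11 with Pmaip1 below it. Bcl2 remained the lowest, at 1.02 ± 0.159 CPM per kb.

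**Figure D4:**
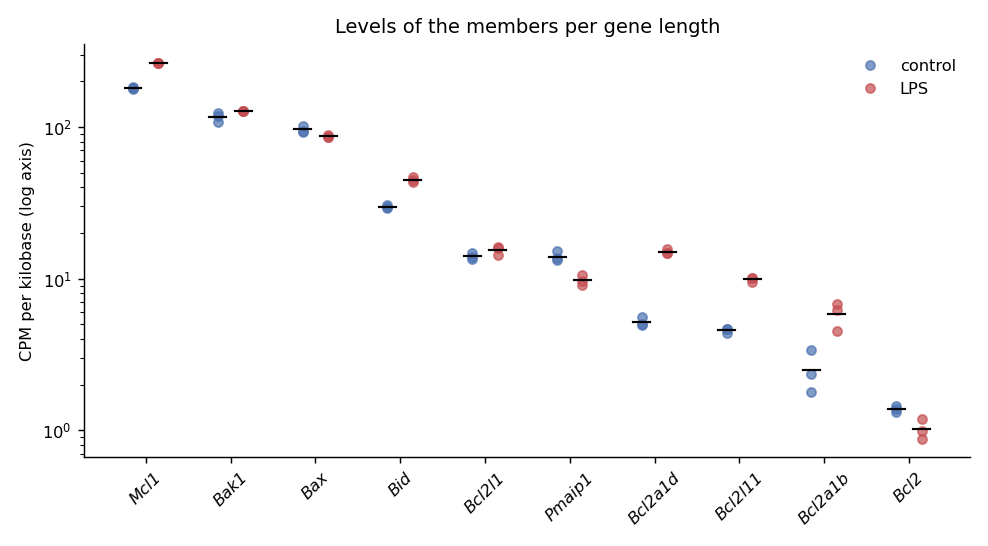
CPM per kilobase of gene length on a log axis for the 10 genes, ordered by the control mean, with points for the 3 libraries of each group and a line at the mean. Mcl1 is highest and Bcl2 lowest in both groups, and Bcl2a1d rises from 5.16 to 15.0 CPM per kb.

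Summed by role, the guardians held 203, 203 and 206 CPM per kb in control cells, against 304, 300 and 299 in LPS-stimulated cells. Mcl1 alone made up 88.7% ± 0.340 of this sum in control cells and 87.6% ± 0.239 with LPS. The effectors summed to 225, 201 and 212 CPM per kb in control cells and to 212, 215 and 213 with LPS, so that the groups overlapped. The BH3-only genes summed to 49.9, 47.4 and 47.5 CPM per kb in control cells and to 66.2, 65.7 and 62.1 with LPS, without overlap. Of the sum over all 10 genes, guardians took 43.9% ± 1.28 in control cells and 52.0% ± 0.267 with LPS, effectors 45.7% ± 1.28 and 36.9% ± 0.355, and BH3-only genes 10.4% ± 0.151 and 11.2% ± 0.310. These sums are descriptions of RNA levels and were given no test.

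Of 16 other BCL2 family genes, all in the table, 10 were tested, 1 was up-regulated and 1 down-regulated, with a median log2 fold change of -0.13. Bnip3l (NIX), a receptor for the removal of mitochondria, rose by 0.22 on the log2 scale (SE 0.04, edgeR adjusted p = 0.0013). Its relative Bnip3 had a log2 fold change of -0.30 (SE 0.09, edgeR adjusted p = 0.015). The BH3-only genes Bmf, Bad, Bik and Bbc3 (PUMA, a p53 target) were tested and not called, and the BH3-only gene Hrk had 0 counts in every library.

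In the mitochondrial apoptosis machinery, 20 of 20 genes were tested. Of these, 1 was up-regulated and 3 were down-regulated, with a median log2 fold change of 0.00. Birc5 (survivin, a mitotic inhibitor of apoptosis) was lower with LPS, at a log2 fold change of -0.24 (SE 0.05, edgeR adjusted p = 0.0011). Birc3 (cIAP2), a ubiquitin ligase of TNF receptor signalling, rose by 0.82 (SE 0.08, edgeR adjusted p = 1.2e-06). Apaf1 and Casp9, the core of the apoptosome, had log2 fold changes of 0.07 and -0.03 and were not called.

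Of 11 survival genes linked to NF-kB, all tested, 10 were up-regulated and 0 down-regulated, and 4 were DEG. Over all genes tested, 18.7% were called higher and 2.65% were DEG. The median log2 fold change of the list was 1.36. The list includes the NF-kB subunits Nfkb1 and Relb, and shares Birc3 and Xiap with the mitochondrial list above. The largest changes were those of Traf1 (log2 fold change 3.91, SE 0.13), a signalling adaptor of TNF receptors, Ier3 (2.42, SE 0.06), Tnfaip3 (A20, 2.34, SE 0.06) and Nfkbia (1.67, SE 0.05), the inhibitor of NF-kB. The highest edgeR adjusted p of these 4 was 5.2e-12, and all were above the 1.54 of Bcl2a1d. Xiap, an inhibitor of caspases, was the gene not called.

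Among 16 p53 target genes, 14 were tested, 4 up-regulated and 7 down-regulated, with a median log2 fold change of -0.15. Those that rose were Plk2 (log2 fold change 1.16, SE 0.04), Mdm2 (0.91, SE 0.04), Btg2 (0.68, SE 0.17) and Aen (0.25, SE 0.06), the highest edgeR adjusted p being 0.0069. The largest decreases were those of Trp53inp1 (-1.18, SE 0.15), Sesn1 (-0.82, SE 0.10), Zmat3 (-0.57, SE 0.05) and Phlda3 (-0.54, SE 0.09), the highest edgeR adjusted p being 2.8e-04. Pmaip1, another p53 target, lay at -0.52, within the range of this list.

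Of 16 genes that act on the stability or control of MCL1 and BIM, all tested, 1 was up-regulated and 3 were down-regulated, with a median log2 fold change of -0.05. Trib1, a pseudokinase adaptor for protein degradation, rose by 0.36 on the log2 scale (SE 0.09, edgeR adjusted p = 0.0056). The lower genes were Dynll2 (log2 fold change -0.24, SE 0.06, edgeR adjusted p = 0.0092), a dynein light chain known to bind BMF, the kinase Gsk3b (-0.16, SE 0.06, edgeR adjusted p = 0.04) and the kinase Mapk3 (-0.14, SE 0.05, edgeR adjusted p = 0.047). The ubiquitin ligase Huwe1 and the deubiquitinase Usp9x, both known to act on MCL1 protein, had log2 fold changes of 0.22 and -0.11 and were not called, as was Foxo3, a transcription factor of Bcl2l11, at 0.00.

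**Figure D5:**
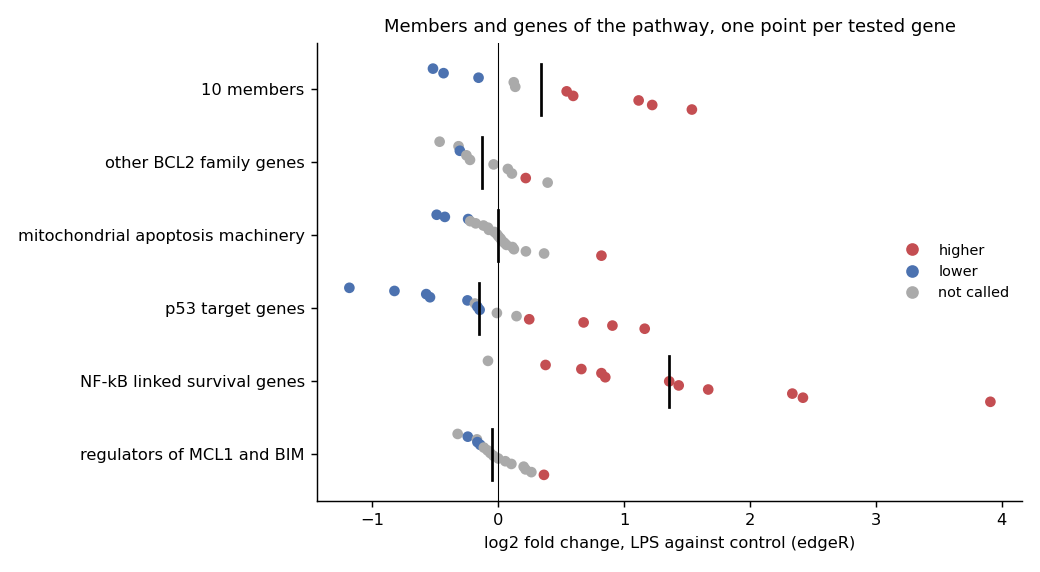
Log2 fold changes (LPS against control, edgeR) of the 10 genes and of 5 lists of pathway genes, 1 point per tested gene, red where called higher, blue where called lower and grey where not called, with a black line at the median. The NF-kB linked survival genes have the highest median, 1.36, and the medians of the other 4 pathway lists lie between -0.15 and 0.00.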

How the data were processed

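RNA from 3 control and 3 LPS samples of N9 microglia was sequenced by Novogene, and groups were taken from the labels. The authors deposited read counts per gene, whole numbers without normalization, together with a gene length. The submitters' processing notes name featureCounts 1.5.0-p3 and mm10, and the aligner, annotation and use of strand are not given in the sources used here. Positions are those of the deposited table, and for 9 of the 10 genes they equal GENCODE M21. A deposited table of the authors' own comparison (fold changes, p-values and 18 columns of values per sample) was not used.

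LPS was compared with control by edgeR 4.0.16 (R 4.3.3), with TMM normalization, filterByExpr, a prior count of 0.125, the quasi-likelihood test and Benjamini-Hochberg adjustment over 12296 genes. The SE is the log2 fold change divided by the square root of F. CPM used TMM-scaled library sizes, and 3 counts correspond to 0.161 to 0.19 CPM. A single gene's two-sided exact permutation test could not go below p = 0.1. Within groups, libraries differed by more than sampling noise. Alternatives were DESeq2 1.42.0, RLE factors, 2 other filters, robust dispersion, a replicate block, a prior count of 2, protein-coding genes, each library left out, summed Bcl2a1 genes and, added later, control replicates 2 and 3 left out. Simulated data were used to test the edgeR fit of this comparison. It recovered 93 of 100 genes changed by 0.5 on the log2 scale and 100 of 100 changed by 1. There were 8 false calls among 12306 genes. The simulation gave every gene the same fixed dispersion and changed only genes above a floor on mean counts. It therefore does not give the power for genes that vary more, such as Bcl2a1b. Alignments used Biopython 1.88 and plots matplotlib 3.10.9.

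The 10 genes, the lists and the motifs were chosen with earlier results of these data known. All 10 genes are named, with every called gene of the other BCL2 family list and, of each further list, up to 4 called genes in each direction with the largest change. Other genes are named only for their place in a list. Some genes that this rule names are not reported here.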

Additional observations from a re-analysis of the deposited data

How the results depend on the processing

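The number of the 10 genes called higher with LPS was 5 or 6 in every fit with all 6 libraries and from 5 to 6 with each library left out. With each library left out, the number lower ran from 1 to 3 and the number of DEG from 0 to 1. The low values came without LPS replicate 1, where Bcl2 and Bax were not called, and without control replicate 1, where Bcl2a1d had a log2 fold change of 1.498. Mcl1, Bid, Bcl2l11, Pmaip1 and Bcl2a1d kept their direction and call in every alternative run. The direction of all 10 genes was the same in every alternative run. Bak1 was called with robust dispersion (edgeR adjusted p = 0.027), protein-coding genes alone (0.045) and the replicate block (0.027), and its adjusted p ran from 0.016 to 0.652 over its edgeR and DESeq2 alternatives. With the replicate block, 6 genes were higher, 3 lower and 1 a DEG. Samples of the same number had correlations of 0.14, 0.05 and 0.01 in their deviations from the group means, and the labels do not say that a number marks a shared culture. Control replicate 2 correlated best with LPS replicate 3, and control replicate 3 with LPS replicate 2. RLE factors and DESeq2 shifted the median log2 fold change of all genes by under 0.1. Depth limits Bcl2a1b most, with 27 to 91 counts.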

Other observations

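Ratios between partners, taken on the CPM per kb scale in each library, are given as a description, with no test. Mcl1 over Pmaip1 was 11.9, 13.6 and 13.4 in control cells and 27.3, 25.0 and 28.9 with LPS. Mcl1 over Bcl2l11 was 40.8, 38.9 and 39.2 in control cells and 26.5, 26.0 and 27.5 with LPS. Bcl2 over Bcl2l11 was 0.303 ± 0.0233 in control cells and 0.103 ± 0.0149 with LPS, and Bax over Bak1 was 0.828 ± 0.0288 and 0.682 ± 0.0112 (mean ± SD, n = 3). In these 4 ratios the groups did not overlap. Mcl1 was higher relative to Pmaip1 with LPS, and lower relative to Bcl2l11.

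Among all 12296 tested genes, Bcl2a1d ranked 318 by the size of its change, Bcl2a1b 461 and Bcl2l11 540, whereas Mcl1 ranked 1733 and was at percentile 98.6 by control level. Spi1, which encodes PU.1 and was in the list of microglial markers, rose by 0.58 on the log2 scale (SE 0.04, edgeR adjusted p = 5.4e-08), and its part in the change of the A1 genes was not tested. The neuron list had 3 of 9 genes tested, and Tubb3, which many dividing cell lines also express, was a DEG at a log2 fold change of 1.67 (SE 0.15, edgeR adjusted p = 7.3e-07). Map2, at a higher level in control cells (22.5 CPM), was called lower at -0.41 (SE 0.09, edgeR adjusted p = 0.0022), and Slc17a7 was not called. Rbfox3, Snap25 and Syt1 had at most 6 counts in any library. The astrocyte list had 3 of 6 genes tested and summed to 96.0 to 98.7 CPM in control libraries and to 96.0 to 104.8 CPM with LPS. Of these, Gja1 was called higher at a log2 fold change of 0.18 (SE 0.05, edgeR adjusted p = 0.0099), Aldh1l1 was called lower at -0.29 (SE 0.08, edgeR adjusted p = 0.013) and Slc1a2 was not called, while Gfap had at most 10 counts and Aqp4 at most 2 in any library. The oligodendrocyte list had 1 of 6 genes tested and summed to 33.5 to 40.0 CPM in control libraries and to 28.3 to 29.6 CPM with LPS. That gene, Mbp, was called lower at -0.34 (SE 0.08, edgeR adjusted p = 0.0028), and Olig2 had 0 counts in every library. The part of these markers in the results for the BCL2 family was not tested.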
